A study of Canis lupus familiaris with 6 samples.

Results

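Transcription factors that shape T lymphocytes and natural killer (NK) cells were followed in the whole blood of dogs fed a selenium chelate of casein phosphopeptide (CPP-Se). The 10 genes TBX21, EOMES, TCF7, LEF1, GATA3, RUNX3, BCL11B, ETS1, IKZF3 and SATB1 were found by symbol, each as 1 entry, among the 31512 genes of the expression table. The blood was taken on day 30 from adult Beagle dogs, 3 of a control group given maintenance food and a snack without CPP-Se, and 3 of a group given the same snack with CPP-Se. Each dog gave 1 mRNA library, with between 6598173 and 8067034 reads on genes. Expression is given as FPKM, the number of fragments scaled to gene length and to the size of the library, so levels can be set beside each other between genes. The library size behind these values is not given in the sources used here, and for the second CPP-Se dog the values imply a size of 1.65 times its reads on genes, where the other dogs had ratios of 0.882 to 1.05. Its FPKM summed to 303449 over all genes, against 458774 to 540009 in the others, and scaling to a common sum would move its ETS1 level from 51.5 to 79.0 FPKM and its TCF7 level from 56.4 to 86.5 FPKM. Whole blood is a mixture of cell types, so that for every gene below a larger or smaller number of cells of a type and more or less RNA per cell cannot be told apart.

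A lymphocyte is guided through its life by a small set of DNA-binding proteins. TCF7 and LEF1 act downstream of Wnt signalling and keep T cells naive or memory-like, BCL11B and GATA3 set the T cell lineage in the thymus, and the T-box factors TBX21 (T-bet) and EOMES together with RUNX3 drive the type 1 helper, cytotoxic and NK programmes. GATA3 is also the master regulator of type 2 helper cells, and TBX21 opposes it. ETS1, IKZF3 (Aiolos) and SATB1 act more widely, in B cells as well as T cells or, for SATB1, as an organiser of chromatin in T cells.

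All 10 genes had a higher mean in the CPP-Se dogs than in the control dogs, by factors from 1.22 for SATB1 to 3.30 for TBX21. Summed over the 10 genes, the control dogs held 114, 158 and 92.0 FPKM and the CPP-Se dogs 187, 205 and 209 FPKM. Every CPP-Se dog thus lay above every control dog in the sum (121 ± 33.6 against 201 ± 11.6, SD, n = 3 in each group). For 6 genes, TBX21, RUNX3, TCF7, ETS1, IKZF3 and BCL11B, the lowest CPP-Se dog was above the highest control dog. Such a gap in that direction was found in 1025 of the 9847 genes tested (10.4%), and the opposite gap, with all CPP-Se dogs below, in 1244 (12.6%).

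None of the 10 genes passed the threshold of an adjusted p under 0.05 with a fold change of at least 1.5, by limma on log2(FPKM + 1) with Benjamini-Hochberg adjustment over all genes tested. Over all genes of the table, 3 passed (0.0305%), all of them lower in the CPP-Se dogs, or 12 genes, 8 higher and 4 lower, when the libraries were scaled to a common sum of FPKM. At an unadjusted p under 0.05, TBX21, RUNX3, TCF7 and ETS1 were higher, which is 4 of 10, beside 676 of 9847 genes that were higher (6.87%) and 896 that were lower (9.10%) at that level. The median log2 fold change of the 10 genes was 0.56, where the median of all genes tested was -0.0043 and 49.6% of genes were above 0. All 10 genes had a mean of at least 1 FPKM in the control dogs alone, so none entered the test only through its level in the CPP-Se dogs.

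**Figure D1:**
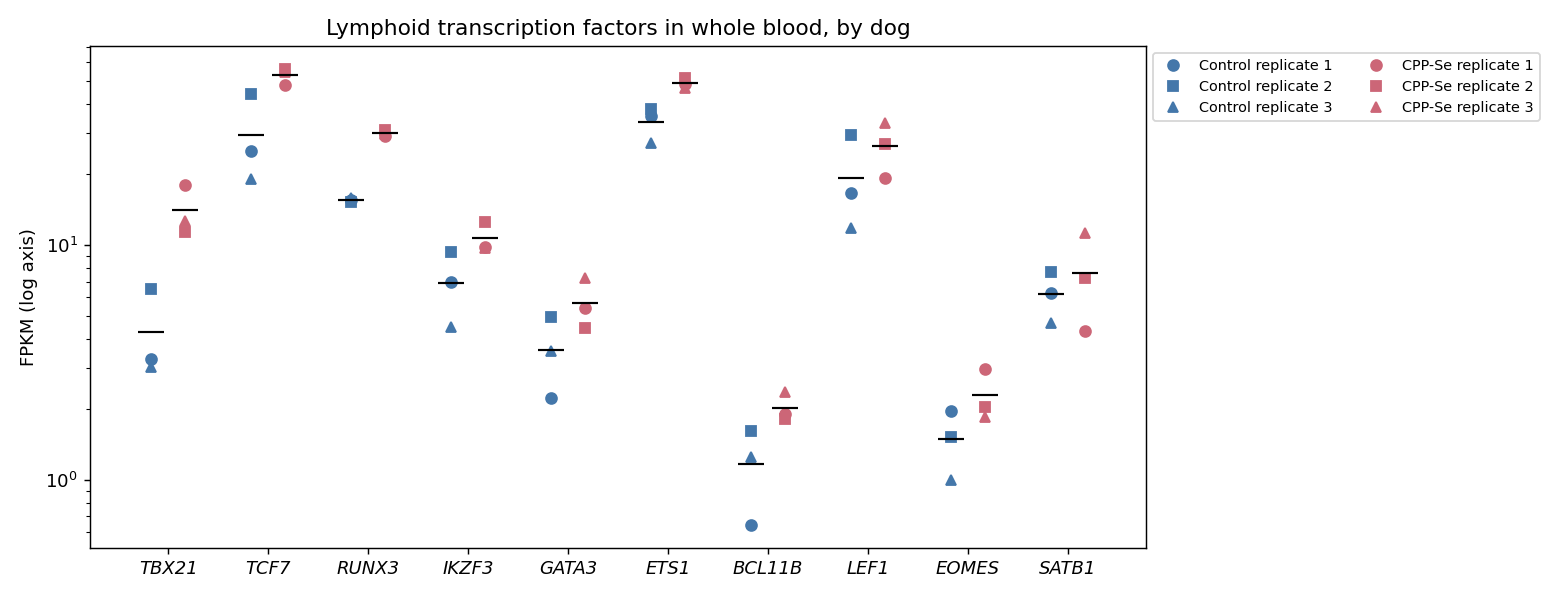
FPKM of the 10 transcription factors (logarithmic axis) in each of the 3 control dogs and 3 CPP-Se dogs, 1 point per dog, with bars at the group means. The points of the 2 groups stand apart for TBX21, RUNX3, TCF7, ETS1, IKZF3 and BCL11B and are mixed for LEF1, SATB1, GATA3 and EOMES.

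TBX21 differed most. This gene (ENSCAFG00000016705, chromosome 9, 24077761 to 24086261, forward strand, in the coordinates of the table) encodes the T-box factor that switches on interferon gamma and the killing programme in type 1 helper, cytotoxic T and NK cells. It was measured at 3.28, 6.49 and 3.03 FPKM in the control dogs and at 18.1, 11.4 and 12.7 FPKM in the CPP-Se dogs. Even the lowest CPP-Se dog, at 11.4 FPKM, was well above the highest control dog, at 6.49 FPKM. The log2 fold change was 1.55 with a standard error of 0.29 (unadjusted p = 0.000766, adjusted p = 0.138 in limma with Benjamini-Hochberg adjustment). By unadjusted p TBX21 stood 46th and by the size of its log2 fold change 43rd from the top of the 9847 genes tested. These levels rested on 46, 85 and 50 reads in the control dogs against 238, 312 and 160 reads in the CPP-Se dogs.

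EOMES, the related T-box factor of memory CD8 T cells and NK cells (ENSCAFG00000005510, chromosome 23, 16506032 to 16511527, forward strand), was much less abundant and its groups overlapped. It was at 1.97, 1.52 and 0.996 FPKM in the control dogs and at 2.96, 2.05 and 1.86 FPKM in the CPP-Se dogs. The third CPP-Se dog was below the first control dog, and the log2 fold change was 0.40 with a standard error of 0.25 (adjusted p = 0.483 in limma with Benjamini-Hochberg adjustment). No library held more than 65 EOMES reads. The ratio of TBX21 to EOMES, chosen after the values had been seen, was 1.66, 4.27 and 3.04 in the control dogs against 6.11, 5.55 and 6.85 in the CPP-Se dogs, without overlap. Of 13 genes with a T-box domain in the table, 3 were expressed highly enough to be tested, and the other one, MGA, had a log2 fold change of 0.11.

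RUNX3 showed the narrowest spread between dogs in the deposited FPKM. The gene (ENSCAFG00000012903, chromosome 2, 74829960 to 74856947, forward strand) encodes a Runt factor that silences CD4 and works with T-bet in CD8 T cells and NK cells. It was at 15.5, 15.3 and 15.8 FPKM in the control dogs and at 29.1, 30.9 and 29.8 FPKM in the CPP-Se dogs. The dogs of each group were thus almost level, and the CPP-Se mean was 1.93 times the control mean. The log2 fold change was 0.90 with a standard error of 0.16 (unadjusted p = 0.000454, adjusted p = 0.138 in limma with Benjamini-Hochberg adjustment), which put RUNX3 30th of 9847 genes by unadjusted p. The coefficient of variation between dogs was 1.58% in the control group and 2.88% in the CPP-Se group, below the 8.60% and 5.60% that counting the mean number of RUNX3 reads gives by itself. The narrow spread depended on the scaling. With a common sum of FPKM the levels were 15.2, 13.8 and 16.0 FPKM against 27.2, 47.3 and 25.7 FPKM, still without overlap. The log2 fold change was then 1.05 with a standard error of 0.35 (unadjusted p = 0.00765, adjusted p = 0.328 in limma with Benjamini-Hochberg adjustment). The other Runt genes tested, RUNX1 and RUNX2, which act in blood stem cells and bone, had log2 fold changes of -0.07 (unadjusted p = 0.751 in limma) and 0.08 (unadjusted p = 0.675 in limma).

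TCF7 and LEF1 are the HMG-box factors of naive and memory T cells. TCF7 (ENSCAFG00000000990, chromosome 11, 22313105 to 22344004, forward strand) was at 25.1, 43.8 and 19.2 FPKM in the control dogs and at 47.9, 56.4 and 54.5 FPKM in the CPP-Se dogs. The groups did not overlap, but the second control dog came within a few FPKM of the first CPP-Se dog. Its log2 fold change was 0.91 with a standard error of 0.29 (unadjusted p = 0.0155, adjusted p = 0.217 in limma with Benjamini-Hochberg adjustment).

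LEF1 (ENSCAFG00000011252, chromosome 32, 28517108 to 28634019, reverse strand) was at 16.7, 29.4 and 11.8 FPKM in the control dogs and at 19.3, 27.0 and 33.2 FPKM in the CPP-Se dogs. The second control dog exceeded 2 of the CPP-Se dogs, and the log2 fold change of 0.50 had a standard error of 0.34 (adjusted p = 0.522 in limma with Benjamini-Hochberg adjustment). The ratio of TCF7 to LEF1, also chosen after the values had been seen, was 1.51, 1.49 and 1.62 in the control dogs against 2.48, 2.08 and 1.64 in the CPP-Se dogs, so that the third CPP-Se dog was barely outside the control range. LEF1 was the only one of the 10 genes that another gene of the table overlapped, namely HADH on the opposite strand. The use of strand in the counting is not given in the sources used here, but HADH held 29 to 65 reads per dog where LEF1 held 210 to 796. HADH had a log2 fold change of 0.06.

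GATA3 and BCL11B set the T cell lineage. GATA3 (ENSCAFG00000005019, chromosome 2, 28069051 to 28087760, reverse strand) was at 2.24, 4.93 and 3.53 FPKM in the control dogs and at 5.39, 4.42 and 7.28 FPKM in the CPP-Se dogs. The second CPP-Se dog was below the second control dog, and the log2 fold change was 0.57 with a standard error of 0.27 (adjusted p = 0.361 in limma with Benjamini-Hochberg adjustment). The ratio of TBX21 to GATA3, the factors of type 1 and type 2 helper cells, was 1.47, 1.32 and 0.858 in the control dogs against 3.36, 2.58 and 1.75 in the CPP-Se dogs. That ratio, chosen after the values had been seen, did not overlap between the groups, whereas the ratio of TBX21 to RUNX3, at 0.211, 0.423 and 0.191 in the control dogs against 0.621, 0.369 and 0.427 in the CPP-Se dogs, did.

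BCL11B, a zinc finger factor that keeps T cells from taking an NK-like course (ENSCAFG00000017809, chromosome 8, 67622708 to 67714404, reverse strand), was the least abundant of the 10. It was at 0.644, 1.62 and 1.25 FPKM in the control dogs and at 1.91, 1.81 and 2.36 FPKM in the CPP-Se dogs. The groups were separate by a narrow gap, between 1.62 and 1.81 FPKM, and no library held more than 77 reads of the gene. Its log2 fold change was 0.50 with a standard error of 0.26 (adjusted p = 0.390 in limma with Benjamini-Hochberg adjustment).

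ETS1, IKZF3 and SATB1 are shared more widely among lymphocytes. ETS1 (ENSCAFG00000010304, chromosome 5, 6058935 to 6186232, forward strand), needed for T cell survival, NK cells and quiescent B cells, was at 35.3, 37.9 and 27.3 FPKM in the control dogs and at 48.6, 51.5 and 46.6 FPKM in the CPP-Se dogs. All CPP-Se dogs lay above the control dogs, and the log2 fold change was 0.55 with a standard error of 0.19 (unadjusted p = 0.0209, adjusted p = 0.243 in limma with Benjamini-Hochberg adjustment). Among the 10 genes with an Ets domain that were tested, ETS1 alone was higher without overlap, while SPI1, ELF1 and ETV3 were lower without overlap. Of all genes tested 10.4% and 12.6% were so, and 1 of 10 is near the first of these shares. SPI1 (PU.1), the factor of monocytes, granulocytes and B cells, was at 314, 282 and 330 FPKM in the control dogs and at 213, 232 and 172 FPKM in the CPP-Se dogs.

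IKZF3, an Ikaros family factor of B cells and differentiated T cells (ENSCAFG00000016310, chromosome 9, 22643640 to 22728385, forward strand), was at 6.99, 9.32 and 4.47 FPKM in the control dogs and at 9.80, 12.5 and 9.72 FPKM in the CPP-Se dogs. The groups were separate by the gap between 9.32 and 9.72 FPKM only, which closed when the libraries were scaled to a common sum of FPKM, while that of GATA3 opened. The log2 fold change was 0.60 with a standard error of 0.26 (adjusted p = 0.314 in limma with Benjamini-Hochberg adjustment). SATB1 (ENSCAFG00000005839, chromosome 23, 24593489 to 24690977, forward strand) was at 6.29, 7.71 and 4.68 FPKM in the control dogs and at 4.33, 7.25 and 11.3 FPKM in the CPP-Se dogs. The first CPP-Se dog had the lowest level of all and the third the highest. Its log2 fold change of 0.19 (standard error 0.32) turned to -0.10 without the third CPP-Se dog.

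**Figure D2:**
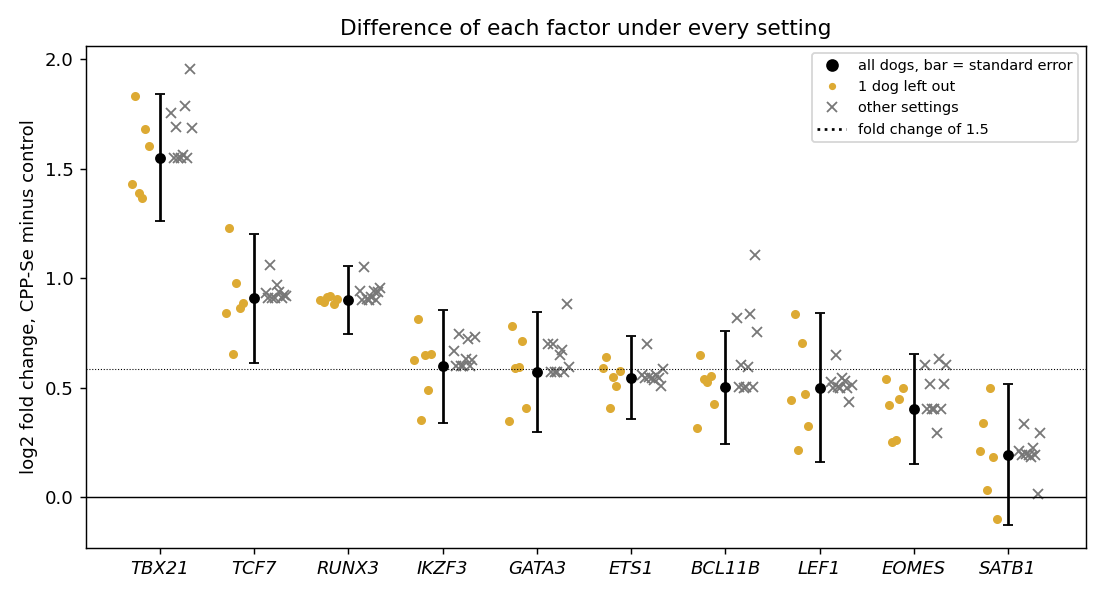
Log2 fold change of CPP-Se over control dogs on log2(FPKM + 1) for the 10 transcription factors (black points, with bars of 1 standard error from limma, n = 3 in each group), with the values when 1 dog was left out (yellow points), those under the other settings (grey crosses) and a dotted line at a fold change of 1.5. The black points are all above 0, from 0.19 for SATB1 to 1.55 for TBX21, and 1 value of SATB1, without the third CPP-Se dog, is below 0 at -0.10.

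The calls differed between settings. Under 14 other scalings, filters, weights and sets of dogs, none of the 10 genes passed the threshold, with adjusted p in limma from 0.0629 to 0.455 for TBX21 and from 0.0904 to 0.455 for RUNX3. Under 2 further settings on the read counts recovered from the FPKM, which were chosen after seeing the data, TBX21 and RUNX3 passed and the other 8 genes did not. With limma-voom and sample quality weights, 156 genes passed over the whole table (1.58%), with TBX21 at a log2 fold change of 1.96 (adjusted p = 0.0401) and RUNX3 at 0.94 (adjusted p = 0.0421). With a negative binomial model 309 genes passed (3.14%), with TBX21 at 1.69 (Benjamini-Hochberg adjusted p = 0.00133 in that model) and RUNX3 at 0.96 (Benjamini-Hochberg adjusted p = 0.000658 in that model).

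The order of abundance was similar in both groups. In the control dogs ETS1 led, followed by TCF7, LEF1, RUNX3, IKZF3, SATB1, TBX21, GATA3, EOMES and BCL11B. Of the neighbours in that order, only RUNX3 and IKZF3, and GATA3 and EOMES, had ranges over the 3 dogs that did not overlap. In the CPP-Se dogs the order was TCF7, ETS1, RUNX3, LEF1, TBX21, IKZF3, SATB1, GATA3, EOMES and BCL11B. There the ranges separated ETS1 from RUNX3, LEF1 from TBX21, and GATA3 from EOMES. TBX21 stood 7th in the control dogs and 5th in the CPP-Se dogs.

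Within the control group the dogs tended to keep the same order from gene to gene. The second control dog had the highest level for 8 of the 10 genes and the third the lowest for 7. For 6 genes the full order was the second dog, the first and the third, which was also the order of the mean of the T cell marker genes described next. RUNX3 ran the other way, highest in the third control dog and lowest in the second, within its narrow range. Among the CPP-Se dogs the highest level was in the first dog for EOMES and TBX21, in the second for 4 genes and in the third for 4.

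The levels were next set against genes that mark T cells as such. Of 18 T cell markers (components of the T cell receptor complex, its signalling proteins and co-receptors), 16 were in the table and tested, 14 had a higher and 2 a lower mean, 8 were higher (50%, beside 10.4% of all genes tested) and 1 lower (6.25%, beside 12.6%) without overlap, and none passed the threshold. CD6, a co-stimulatory receptor, had a log2 fold change of 1.23, CD3D 1.11, ZAP70 1.01, CD3E 0.89 and CD8A 0.53. CD4 was the main exception, with 1019, 849 and 1256 FPKM in the control dogs, 627, 796 and 613 FPKM in the CPP-Se dogs and a log2 fold change of -0.61. Canine neutrophils also carry CD4, and it supplied most of the summed level of the list, which was 1095 to 1423 FPKM in the control dogs and 997 to 1080 FPKM in the CPP-Se dogs. Without CD4 the other 15 markers summed to 194, 246 and 167 FPKM and to 373, 284 and 384 FPKM.

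On the log2(FPKM + 1) scale the mean of the 16 T cell markers was 3.90 ± 0.252 in the control dogs and 4.46 ± 0.153 in the CPP-Se dogs (SD, n = 3 in each group), a difference of 0.55 without overlap. TBX21 minus this mean was -1.78, -1.26 and -1.65 in the control dogs against -0.22, -0.66 and -0.82 in the CPP-Se dogs. TBX21 was thus higher relative to the T cell markers in every CPP-Se dog, by 1.00 on average, and by 0.92 when CD4 was left out of the markers. For the other 9 genes the groups overlapped on this relative scale. The share of all genes without overlap on this scale was not computed, and on the FPKM scale 10.4% were higher without overlap. TBX21 was also the factor with the largest difference before the subtraction. The relative differences were 0.36 for TCF7 and 0.35 for RUNX3, between -0.15 and 0.04 for GATA3, IKZF3, ETS1, LEF1, BCL11B and EOMES, and -0.36 for SATB1. The balance of effector over naive factors, the mean of TBX21 and EOMES minus the mean of TCF7 and LEF1, was -2.59, -3.09 and -2.50 in the control dogs against -1.86, -2.70 and -2.80 in the CPP-Se dogs, with overlap. The ratio of TBX21 to TCF7 alone, chosen after the values had been seen, did not overlap. It was 0.131, 0.148 and 0.158 in the control dogs against 0.378, 0.202 and 0.234 in the CPP-Se dogs. The part of T cell abundance in the levels of the 10 genes was not tested beyond the subtraction of the marker mean.

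**Figure D3:**
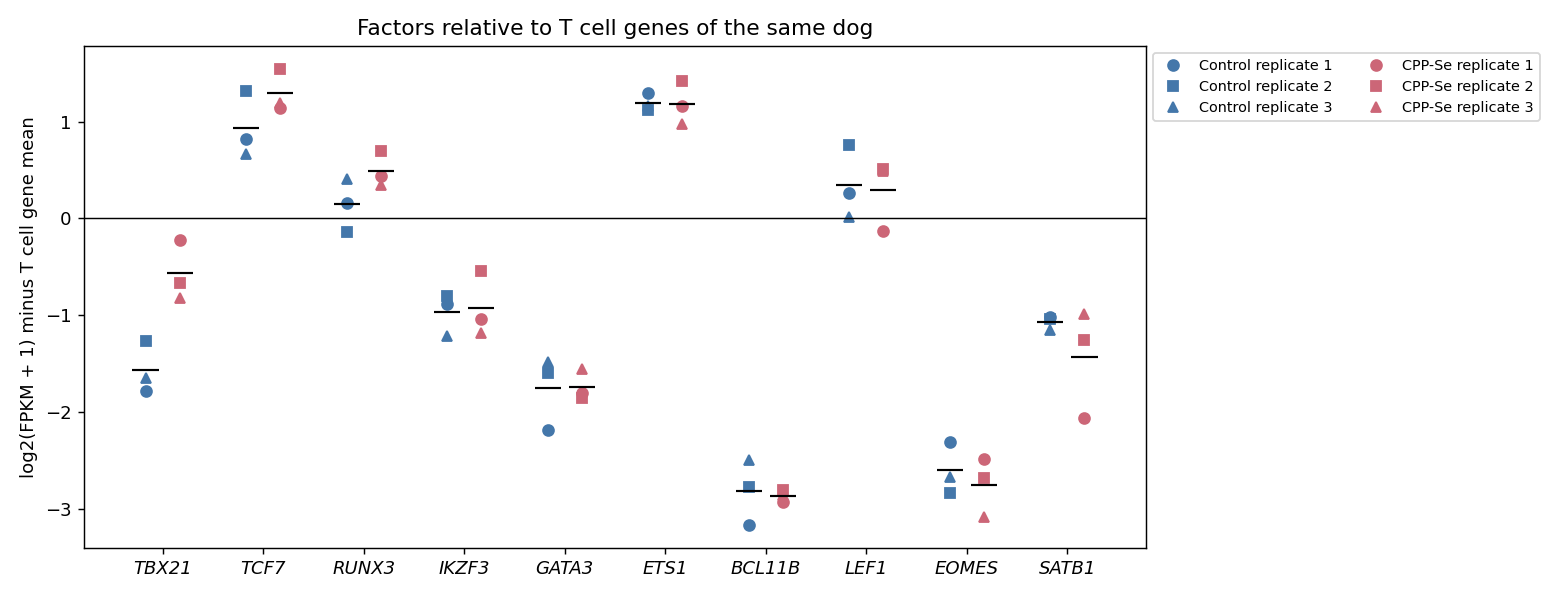
Log2(FPKM + 1) of each transcription factor minus the mean log2(FPKM + 1) of the 16 T cell markers in the same dog, 1 point per dog for 3 control and 3 CPP-Se dogs. TBX21 alone shows 2 separate groups, with control dogs at -1.78 to -1.26 and CPP-Se dogs at -0.82 to -0.22. The share of all genes with separate groups on this scale was not computed.

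Genes of the effector programme that T-bet and EOMES drive mostly had higher means. Of 20 effector genes 18 were in the table and 16 were tested, 14 with a higher and 2 with a lower mean, 7 higher (43.8%, beside 10.4% of all genes tested) and 1 lower (6.25%, beside 12.6%) without overlap, and a median log2 fold change of 0.63. Of these, FASLG, at a mean of 0.782 FPKM against 1.72 FPKM and without overlap, and S1PR5, at 0.768 against 1.81 FPKM, reached the level tested only through the CPP-Se dogs. The lowest was IL18R1, an interleukin-18 receptor chain, at -0.77. PRF1, the pore-forming protein perforin, was at 4.10, 5.46 and 3.84 FPKM in the control dogs and at 15.3, 10.2 and 12.2 FPKM in the CPP-Se dogs. Its log2 fold change of 1.31 (adjusted p = 0.138 in limma with Benjamini-Hochberg adjustment) was close to that of TBX21. The chemokine CCL4 was at 0.854, 1.03 and 1.36 FPKM against 9.10, 3.60 and 7.97 FPKM, while CCL5, at 1.69, 0.542 and 8.90 against 15.7, 7.35 and 16.0 FPKM, overlapped. IL2RB, the interleukin-2 and interleukin-15 receptor chain that T-box factors induce, was at 23.1, 30.1 and 21.4 FPKM against 51.5, 34.6 and 46.5 FPKM. The granzymes differed in extent, with GZMK at a log2 fold change of 1.07 without overlap and GZMB at 0.48 with overlap. IFNG, the signature cytokine of T-bet, had no read in 5 dogs and 4 reads in the first CPP-Se dog, so no difference was detectable at this depth.

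Naive and memory genes form the programme kept by TCF7 and LEF1. Of 12 such genes 10 were tested, 8 with a higher and 2 with a lower mean, 2 higher and 1 lower without overlap, and a median log2 fold change of 0.51, or 0.26 without the third control dog. The shares without overlap, 20% higher and 10% lower, were near those of all genes tested (10.4% and 12.6%). The higher ones without overlap were LTB, the membrane lymphotoxin, at 147, 145 and 99.6 FPKM against 470, 305 and 210 FPKM, and CD27, a co-stimulatory receptor, at 9.42, 13.9 and 5.91 against 20.7, 16.3 and 18.1 FPKM. CCR7, the lymph node homing receptor, had a log2 fold change of 0.51 and IL7R one of 0.44, both with overlapping groups. The helper type 2 genes downstream of GATA3 were scarce, since only 4 of 10 were tested and the cytokines IL4, IL5 and IL13 were below the level tested. Among those 4, 2 had a higher and 2 a lower mean, from 1.01 for PTGDR2 to -0.63 for CCR8 on the log2 scale, all with overlap, and CCR8 reached the level tested only through the control dogs.

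Other factors of T and NK cells did not share one direction. Of 30 such genes, 22 were tested, 15 with a higher and 7 with a lower mean, 6 higher (27.3%, beside 10.4% of all genes tested) and 2 lower (9.09%, beside 12.6%) without overlap, and none past the threshold. Their median log2 fold change was 0.15, or 0.28 with a common sum of FPKM. ID3, an inhibitor of E proteins in naive and memory T cells, was at 12.8, 17.4 and 9.10 FPKM in the control dogs and at 27.9, 36.4 and 41.8 FPKM in the CPP-Se dogs, a log2 fold change of 1.39. ZNF683 (Hobit), a factor of tissue-resident and effector lymphocytes, was at 0, 0.376 and 1.13 FPKM against 2.47, 2.52 and 2.04 FPKM. With 0, 5 and 19 reads in the control dogs it reached the level tested only through the CPP-Se dogs, as did TCF12 with a control mean of 0.993 FPKM. The lowest log2 fold changes were those of NFIL3, a factor of NK cell development that myeloid cells also express, at -0.87, and of ZEB2, a partner of T-bet in terminal effector cells that monocytes also express, at -0.77. FOXP3, the factor of regulatory T cells, was at 1.62, 2.38 and 1.12 FPKM against 2.16, 1.09 and 1.58 FPKM.

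The B lineage factors were given for comparison. Of 11 such genes 8 were tested, 7 with a higher and 1 with a lower mean, and their median log2 fold change was 0.09, within a range of -0.13 (without the second CPP-Se dog) to 0.36 (with the negative binomial model) over the other settings. POU2AF1, a B cell coactivator, had the highest at 0.49 and PAX5, which fixes B cell identity, had 0.14. PAX5 and AFF3 reached the level tested only through the CPP-Se dogs. The lower one was BCL6, a repressor of germinal centre B cells and follicular helper T cells that granulocytes also express, at 73.4, 77.3 and 73.4 FPKM in the control dogs and 31.0, 49.7 and 38.2 FPKM in the CPP-Se dogs.

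Markers of other blood cells also had different levels in the groups. All 10 B cell markers tested had a higher mean, 6 of them (60%, beside 10.4% of all genes tested) without overlap, 1 of the others (VPREB3) was tested only through its level in the CPP-Se dogs, and their summed level was 285 to 406 FPKM in the control dogs and 443 to 479 FPKM in the CPP-Se dogs. MS4A1 (CD20) had a log2 fold change of 0.62. Of 9 NK cell markers 5 were tested, 4 with a higher and 1 with a lower mean, from 1.17 for NCR3 to -0.73 for SH2D1B on the log2 scale. Their summed level of 13.6 to 25.0 FPKM in the control dogs and 17.4 to 36.9 FPKM in the CPP-Se dogs overlapped, KLRF1 had no read in any dog and NCR1 was below the level tested. CD96 was tested only through its level in the CPP-Se dogs.

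Myeloid markers ran in the opposite direction from the lymphoid factors. All 7 monocyte markers tested were lower in the CPP-Se dogs without overlap, where 12.6% of all genes tested were, with a median log2 fold change of -0.97 (-0.63 without the third CPP-Se dog) and a summed level of 572 to 798 FPKM in the control dogs and 221 to 354 FPKM in the CPP-Se dogs. One of them, CD163, at a mean of 1.70 against 0.454 FPKM, reached the level tested only through the control dogs. VCAN (versican) had -1.46 and LYZ (lysozyme) -1.32. Of 7 neutrophil markers tested, 6 had a lower mean, 3 of them without overlap (42.9% of the 7, beside 12.6% of all genes tested), with CXCR2, a chemokine receptor, at -1.21 and MMP9, a gelatinase, at 1.35 with overlap. Their summed level was 1675 to 2231 FPKM against 1296 to 1650 FPKM. No gene of these lists passed the threshold. Their part in the levels of the 10 lymphoid factors was not tested.

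The remaining marker lists overlapped between the groups in their summed levels. Red cell markers summed to 1411 to 3616 FPKM in the control dogs and 2326 to 3463 FPKM in the CPP-Se dogs. Of 9 tested, 5 had a higher and 4 a lower mean, all with overlap. Their median log2 fold change of 0.31 turned to -0.13 without the third CPP-Se dog. SLC4A1, the band 3 anion exchanger, had a log2 fold change of 1.02. Platelet markers summed to 600 to 1285 FPKM against 449 to 1602 FPKM. Eosinophil, basophil and mast cell markers summed to 10.7 to 21.6 FPKM against 5.80 to 52.3 FPKM. Of 5 tested, 3 had a higher and 2 a lower mean, all with overlap. Their median log2 fold change of 0.48 turned to -0.27 without the first CPP-Se dog. CPA3, the mast cell carboxypeptidase, had 1.69 and GATA2 1.05 on the log2 scale. GATA2 was nevertheless lowest of all in the second CPP-Se dog, at 0.309 FPKM. CPA3, at a mean of 0.355 FPKM in the control dogs, was tested only through the CPP-Se dogs. IL5RA, at a mean of 2.23 against 0.992 FPKM, was tested only through the control dogs. The second CPP-Se dog stood apart in that 8 hemoglobin genes took 36.6% of its reads on genes, where they took 48.7% to 55.9% in the other dogs. Without it, 7 of the 10 lymphoid factors were higher without overlap, where 16.2% of all genes tested were. TBX21, RUNX3 and TCF7 then had an unadjusted p under 0.05 in limma, and ETS1 did not (unadjusted p = 0.0534 in limma).

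**Figure D4:**
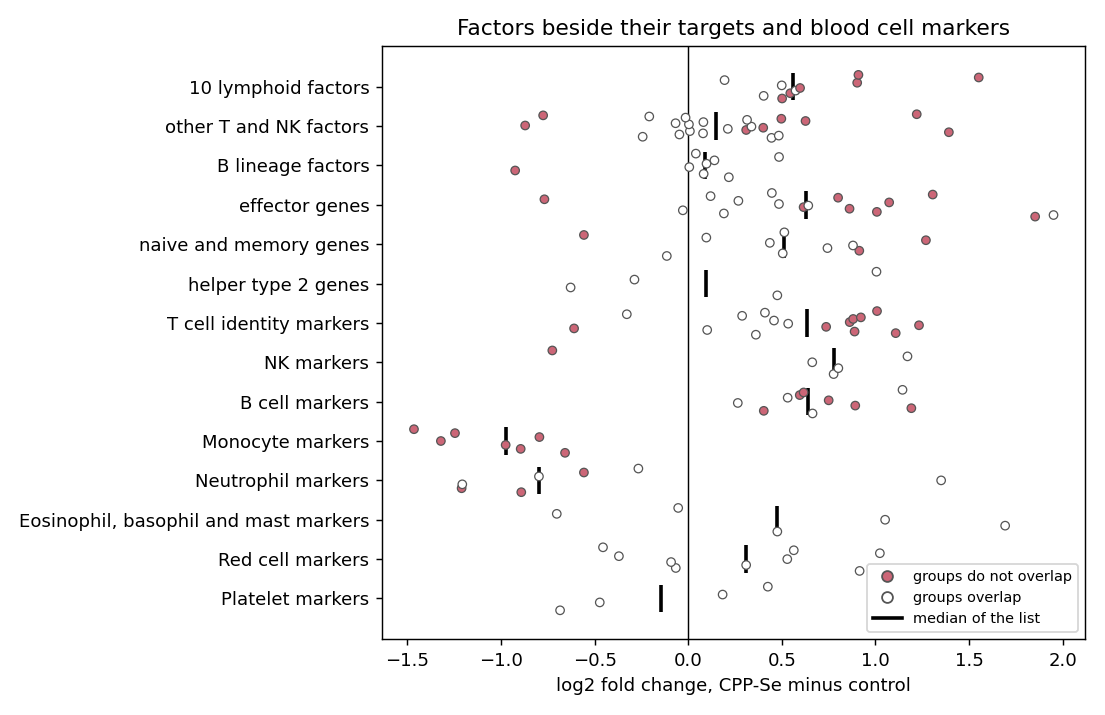
Log2 fold change of CPP-Se over control dogs for each tested gene (1 point per gene, filled where the groups do not overlap and open where they do) of the 10 transcription factors, the related factors, their target programmes and the blood cell marker lists, with the median of each list marked. The lymphoid factors have a median of 0.56, the T cell markers 0.64, the B cell markers 0.64, the monocyte markers -0.97 and the neutrophil markers -0.80.

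The profile over the 6 dogs was compared between genes by the root mean square difference of centred log2(FPKM + 1), where 0 means the same profile. Among the 10 factors, GATA3 and BCL11B were closest to each other (0.12), followed by ETS1 and IKZF3 (0.15). TBX21 was far from the others, with TCF7 nearest at 0.42. Outside the 10 factors, the genes nearest to TBX21 were TP53I13 (0.15), BAIAP3 (0.16) and the T cell marker CD6 (0.19), and those nearest to TCF7 were MTG1 (0.15), PGGHG (0.15) and CTPS1 (0.17). All these profiles share the same 6 libraries and the same contrast, and the scale compresses the differences of low genes, BCL11B among them.

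Genes lying beside the 10 factors were examined as well. Within 50000 bases of a factor 10 other genes were tested, and none had an unadjusted p under 0.05 in limma. A long noncoding RNA gene 109 bases from TBX21, on the same strand, held 7, 8 and 0 reads in the control dogs against 5, 8 and 0 reads in the CPP-Se dogs, too few to compare.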

How the data were processed

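Whole blood mRNA of 3 control and 3 CPP-Se dogs, 1 library per dog, was compared as grouped by the library names. The authors prepared the libraries with the NEBNext Ultra kit, sequenced paired ends and aligned them to the Ensembl dog genome. The submitters' processing notes name CASAVA 2.19, fastp 0.19.7, HISAT2 2.0.5 and featureCounts 1.5.0-p3. The deposited values are FPKM, which the authors computed from gene length and mapped reads. How strand and shared reads were treated in the counting is not given in the sources used here. Columns of the authors' own comparison were not used.

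The test was applied to log2(FPKM + 1) of the 9847 genes (of 31512) whose mean over the 6 dogs reached 1 FPKM, with limma 3.58.1 in R 4.3.3 (lmFit, eBayes with trend, two-sided, Benjamini-Hochberg adjustment over all genes tested). Fold changes are on that scale, which understates those of low genes. Counts of list genes with a higher or lower mean are on the same scale. A gene was called when its adjusted p was below 0.05 and its fold change 1.5 or more in either direction. FPKM times gene length gave whole reads within a tolerance of 0.01, with 6598173 to 8067034 reads on genes per dog. These reads served the limma-voom and negative binomial alternatives. An exact permutation test of 3 against 3 dogs cannot go below p = 0.1 and was not used. The limma, limma-voom and negative binomial fits were tested on simulated data with 200 changed genes. Limma called 173 changed and 17 unchanged genes, and the negative binomial model 182 and 15. Limma-voom called 174 and 4, both with and without sample quality weights. The spread between simulated dogs was a fixed setting rather than that of the real dogs. Tables were made with Python 3.11.15, pandas 2.3.3, numpy 2.4.6 and scipy 1.17.1, and plots with matplotlib 3.10.9.

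The 10 factors and the 13 comparison lists were chosen with earlier results of these data known. Of each list the genes named were those with the largest log2 fold changes in either direction, plus a fixed set of well-known members, plus the 3 genes with the profiles nearest to TBX21 and to TCF7. The ratios between factors, the members of the gene families, the genes nearby, PAX5 and the genes said to reach the level tested through 1 group only were added after the values had been seen. The values of 3 genes of these lists are not reported here.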

Additional observations from a re-analysis of the deposited data

How the results depend on the processing

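The 10 factors were recomputed under 14 other settings and under 2 more chosen after seeing the data. All 10 were higher in the CPP-Se dogs under each, except SATB1, which reversed to -0.10 without the third CPP-Se dog and ranged from -0.10 to 0.50 over the dogs left out. TBX21 ranged from 1.37 to 1.83, RUNX3 from 0.88 to 0.92, TCF7 from 0.65 to 1.23, ETS1 from 0.41 to 0.64, LEF1 from 0.22 to 0.84, IKZF3 from 0.35 to 0.81, GATA3 from 0.35 to 0.78, EOMES from 0.25 to 0.54 and BCL11B from 0.31 to 0.65 over the dogs left out. The lowest values of LEF1, IKZF3 and EOMES came without the third control dog, and those of GATA3 and BCL11B without the first. TBX21 and RUNX3 had an unadjusted p under 0.05 under all of the first 14, TCF7 under 12 and ETS1 under 11. The number of factors at that level went from 2 without the third control dog to 7 without the second, and was 7 with limma-voom and sample quality weights. None of the factors passed the threshold under the first 14, and 2 passed with those weights and 2 with the negative binomial model. Over the whole table, where 3 genes passed, the number was 0 with a pseudocount of 0.1, 0 with every gene above 0 FPKM in at least 1 dog, 12 with a common sum of FPKM, 1 with limma-voom on recovered reads, 156 with limma-voom and sample quality weights and 309 with the negative binomial model. It went from 0 to 14 over the dogs left out, with 14 without the second CPP-Se dog, and the cause was not tested. The common sum of FPKM moved the median of all genes from -0.0043 to 0.13 and that of the 10 factors from 0.56 to 0.70.

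The replicate numbers do not pair the dogs. Deviations from the group means of same-numbered dogs correlated at 0.0165, -0.09 and -0.0433. With the replicate block 1 gene passed over the table and none of the 10 factors, with adjusted p in limma of 0.250 for TBX21 and 0.258 for RUNX3.

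Among the 10 factors, depth limits EOMES and BCL11B most, with at most 65 and 77 reads per dog, and 3 dogs per group limit every comparison.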
